A study of Mus musculus with 6 samples.

Results

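Transcripts of 10 genes from 3 vasoactive peptide systems were followed in bone marrow MSCs of mice: the kininogens and kinin receptors (Kng1, Kng2, Bdkrb1, Bdkrb2), endothelin-1 and its receptors (Edn1, Ednra, Ednrb), and the precursor, enzyme and receptor of angiotensin II (Agt, Ace, Agtr1a). They were taken by gene symbol, and all 10 symbols had a row among the 20071 genes of the count table. The list was selected on these same counts, with their difference between genotypes already known, so that difference is given below as a description. Whether a member met the thresholds used for all genes is stated only as part of that description, and is no independent test of it. MSCs are stromal cells of the marrow that can form osteoblasts. Cells from femurs of 6-week-old Prrx1-Cre;Pcif1fl/fl mice (genotype label CKO, 3 libraries) and of Pcif1fl/fl littermates (label WT, 3 libraries) were kept for 7 days in osteogenic medium (dexamethasone at 100 nM, β-glycerophosphate at 5 mM and ascorbic acid at 50 μg/mL) before poly(A) RNA was sequenced. Both genotypes carried the floxed Pcif1 alleles and both received dexamethasone, a glucocorticoid, so neither group was free of them. Prrx1-Cre is active in limb mesenchyme and its descendants, and PCIF1 methylates the adenosine that follows the mRNA cap.

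The libraries held 20258209 to 28227696 counts. WT replicate 3 stood apart from the other WT libraries: mitochondrial genes took 3.63% of its counts, against 1.40% to 1.57% in the other 5 libraries. The differences of the members are therefore also given without it. Pcif1 counts, summed over the whole gene and so not limited to the floxed exons, were 39.3 to 42.8 CPM (counts scaled to library size, with TMM factors) in WT and 37.8 to 39.7 CPM in CKO libraries, and they check neither label. Xist, which is transcribed from the inactive X chromosome of female cells, was at 232 to 443 CPM in WT and 0.722 to 1.79 CPM in CKO libraries, and the sum of Y-linked genes was 115 to 159 and 219 to 230 CPM. Each WT library thus held both Xist and Y-linked transcripts, so WT libraries were not of female cells only, whereas CKO libraries had Xist near 0. Genotype and the sex of the cells can therefore not be told apart in any difference below. The mesenchymal marker Prrx1 was at 211 to 283 CPM in WT and 276 to 283 CPM in CKO libraries. The cultures also held strong signal of macrophages: the 10 macrophage markers summed to 28850 to 31150 CPM in WT and 28980 to 32240 CPM in CKO libraries, most of it from the lysozyme gene Lyz2, and 0 of the 10 were called at a log2 fold change of at least 1 and an adjusted p under 0.05 (edgeR quasi-likelihood test), while 1 of them, Fcgr1, had an adjusted p under 0.05 at any fold. Fewer cells of a type and less RNA per cell cannot be told apart in such bulk samples.

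The 3 systems share a plan. A large secreted precursor is cut to a short peptide, and the peptide acts on receptors of the G protein-coupled family, many of which signal through Gq, phospholipase C and calcium. Kininogens release bradykinin, which widens vessels and causes pain, and they also inhibit cysteine proteases. Angiotensinogen, the product of Agt, is cut by renin and then by angiotensin-converting enzyme to angiotensin II, which raises blood pressure, and the same enzyme degrades bradykinin. Endothelin-1 constricts vessels through the receptor encoded by Ednra, and the receptor encoded by Ednrb also clears the peptide. In bone, endothelin-1 is known to act on osteoblasts through the Ednra receptor. Kininogens and angiotensinogen are best known as products of the liver.

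The coding sequences of the active peptides are shown because they are what the precursor transcripts carry, and because the kinin sequence is nearly shared by the paralogs Kng1 and Kng2. They were read from GENCODE M21 on GRCm38, 5′ to 3′ on the coding strand, and capitals mark the base that differs between the paralogs.
Kng1 bradykinin: aggcctccaggTttttctcctttccgg
Kng2 bradykinin: aggcctccaggCttttctcctttccgg
Agt angiotensin II: gaccgcgtatacatccaccccttc
Edn1 endothelin-1: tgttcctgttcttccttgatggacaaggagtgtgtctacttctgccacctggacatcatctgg
The Kng1 segment lies at chr16:23078989-23079015 on the plus strand and the Kng2 segment at chr16:22988281-22988307 on the minus strand, both in a coding exon. They differ by 1 base of 27, T12C from Kng1 to Kng2 counted from the first base of the segment, and both codons encode glycine, so both genes encode the same 9 residues. The angiotensin II segment, 24 bases for 8 residues, lies at chr8:124564456-124564479 on the minus strand, and the endothelin-1 segment, 63 bases for 21 residues, at chr13:42303649-42303711 on the plus strand.

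Of the 10 genes, 7 had enough counts to be tested: Kng1, Kng2, Edn1, Ednra, Ednrb, Agt and Ace. Kng1, Kng2, Ednra and Agt were lower in CKO libraries and met the call rule that was used for all genes (log2 fold change of at least 1 in size and adjusted p under 0.05), which for genes selected on this contrast restates their selection, and 0 of the 7 were called higher. Over all 13733 genes tested, 2.5% were called lower and 1.03% higher. Since the members were chosen with this contrast known, nothing is read from their share. The other 3, Agtr1a, Bdkrb1 and Bdkrb2, fell under the filter on low counts.

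**Figure D1:**
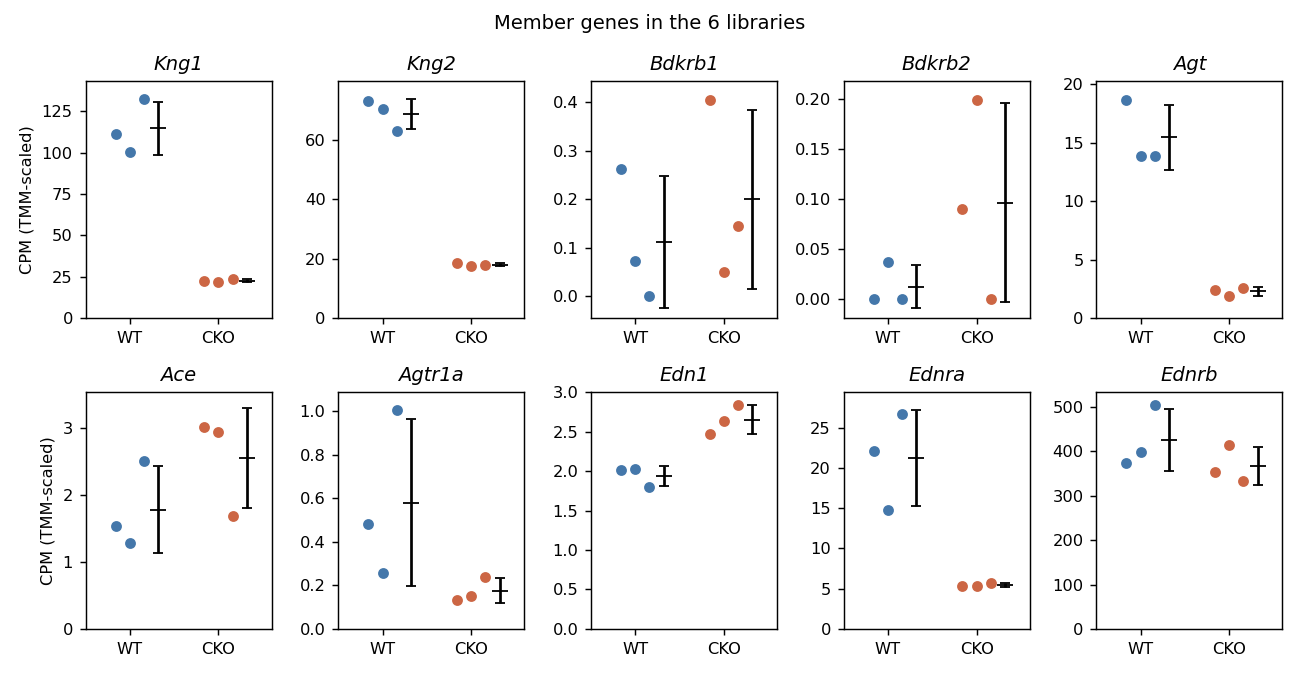
Each panel shows 1 gene in CPM on a linear axis, with points for the 3 WT and 3 CKO libraries in the order of their replicate numbers and a bar for the mean ± SD. For Kng1, Kng2, Agt and Ednra every CKO point lies below every WT point, for Edn1 every CKO point lies above, and the Bdkrb1 and Bdkrb2 values rest on 0 to 9 counts. Over all genes tested, 15.7% had every CKO library below every WT library and 15.0% had every CKO library above. The members were chosen with this contrast known.

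Among the precursors, Kng1 (chr16:23057865-23082078, plus strand) was at 110.9, 100.6 and 132.1 CPM in WT replicates 1 to 3 and at 22.6, 21.6 and 23.7 CPM in CKO replicates 1 to 3. The lowest WT library thus stood far above the highest CKO library, and the CKO libraries lay close together. The log2 fold change of CKO over WT was -2.34 (SE 0.12, n = 3 per group), a level 5.05-fold lower in CKO. Without WT replicate 3 it was -2.22.

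Kng2 (chr16:22985854-23029482, minus strand), which encodes the second mouse kininogen, was at 73.0, 70.3 and 63.1 CPM in WT and 18.5, 17.7 and 17.8 CPM in CKO libraries. Here too the groups did not overlap, and WT replicate 3, the highest library for Kng1, was the lowest WT library for Kng2. The log2 fold change was -1.94 (SE 0.10), a level 3.82-fold lower, and -1.99 without WT replicate 3.

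Kng1 and Kng2 are near copies, so reads can be shared between them. The longest coding transcripts aligned over 2256 bases at 91.1% identity, with 143 mismatches and 57 gap positions. Of the 150-base windows of exonic sequence, the length of 1 sequenced end, 1.39% of those of Kng1 and 1.42% of those of Kng2 occurred without a mismatch in the other gene, and at 50 bases the shares were 17.2% and 19.4%. Most full-length ends thus differ between the genes by at least 1 base, but how the authors treated reads with more than 1 place is not given in the sources used here, and the split between the genes is uncertain to that extent. The sum of both genes does not depend on how reads were divided between them, but any reads dropped for having more than 1 place would be missing from it. It was 183.9, 170.9 and 195.3 CPM in WT and 41.1, 39.4 and 41.4 CPM in CKO libraries, a WT mean 4.51 times the CKO mean. No 100-base window of the sense strand of the other 8 genes occurred in the sense strand of another annotated gene, and antisense overlaps are given below with the genes they touch.

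Per kb of exonic sequence, the ratio of Kng1 to Kng2 was 1.28, 1.20 and 1.76 in WT and 1.03, 1.03 and 1.12 in CKO libraries. Every WT ratio lay above every CKO ratio, and the highest value was that of WT replicate 3. With the longest transcript as the length in place of all exonic bases, Kng1 stood at 50.8 and Kng2 at 30.0 CPM per kb in WT, and at 10.1 and 7.84 CPM per kb in CKO libraries, so the size of the ratio depends on the length used.

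Agt (chr8:124556534-124569706, minus strand), the precursor of the angiotensins, was at 18.6, 13.9 and 13.8 CPM in WT and 2.43, 1.89 and 2.55 CPM in CKO libraries. WT replicate 1 was the highest and the groups did not overlap. Its log2 fold change of -2.75 (SE 0.20) was the lowest of the 7 tested members, a level 6.72-fold lower in CKO, and it was -2.82 without WT replicate 3. The CKO values rest on 38 to 54 counts per library.

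Edn1 (chr13:42301476-42307990, plus strand), the precursor of endothelin-1, went the other way at a low level. It was at 2.01, 2.02 and 1.79 CPM in WT and 2.48, 2.64 and 2.84 CPM in CKO libraries, from 46 to 59 counts in each. Every CKO library lay above every WT library, but the log2 fold change of 0.45 (SE 0.20) did not meet the call rule, and it was 0.40 without WT replicate 3. Over all genes tested, 15.0% had every CKO library above every WT library and 15.7% had every CKO library below.

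**Figure D2:**
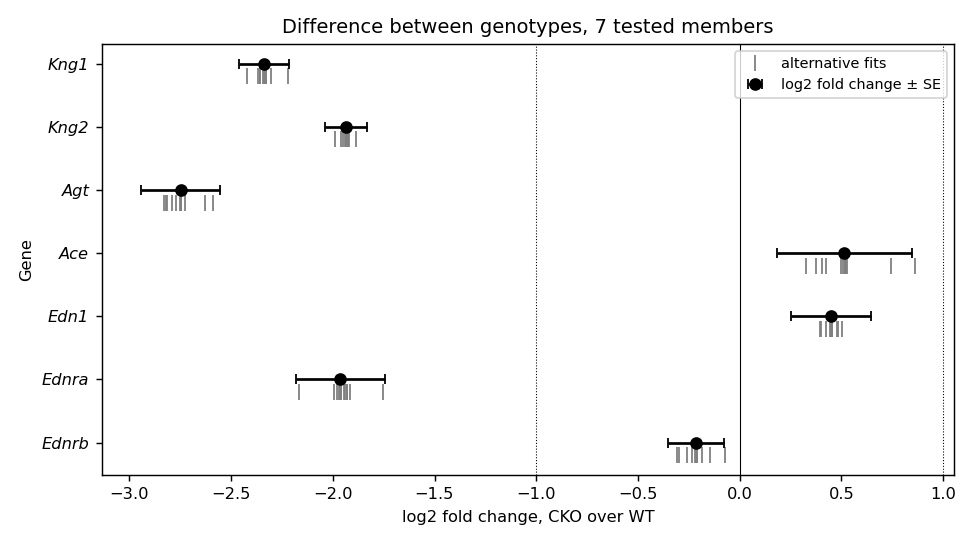
Points give the log2 fold change of CKO over WT for the 7 tested members with its SE from edgeR, grey ticks the 13 alternative fits of each gene, and dotted lines the size of 1 that a call needs. Kng1, Kng2, Agt and Ednra lie below -1 in every fit shown, and Ace, Edn1 and Ednrb lie between -1 and 1 in every fit shown.

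Of the receptors, Ednra (chr8:77663031-77724464, minus strand), the endothelin receptor of smooth muscle and of osteoblasts, was at 22.1, 14.8 and 26.7 CPM in WT and 5.36, 5.28 and 5.68 CPM in CKO libraries. The WT libraries were spread widely and the CKO libraries hardly at all, with no overlap. The log2 fold change was -1.96 (SE 0.22), a level 3.90-fold lower, and -1.75 without WT replicate 3, the highest library. Of the exonic bases of Ednra, 1.66% overlap 4933431K23Rik on the other strand, and since the use of strand in counting is not given in the sources used here, reads there cannot be assigned.

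Ednrb (chr14:103814625-103844402, minus strand), the endothelin receptor that also takes up the peptide, was the most abundant of the 10 genes. It was at 374.4, 397.7 and 505.0 CPM in WT and 353.5, 414.5 and 332.5 CPM in CKO libraries. The groups overlapped, and the log2 fold change of -0.21 (SE 0.14) was not called. The value moved to -0.07 without WT replicate 3, the highest library.

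The ratio of the endothelin receptors lay apart in the genotypes. Per kb, Ednrb stood at 21.7, 34.5 and 24.3 times Ednra in WT libraries and at 84.7, 101.0 and 75.2 times Ednra in CKO libraries. The lowest CKO ratio was above the highest WT ratio. Of the pair, Ednra was called lower and Ednrb was not. Since Ednra was chosen with this contrast known, the separated ratios restate its lower values and are no further result.

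Ace (chr11:105967945-105989964, plus strand), the peptidase that forms angiotensin II and degrades bradykinin, was at 1.53, 1.29 and 2.51 CPM in WT and 3.02, 2.94 and 1.68 CPM in CKO libraries. The groups overlapped through WT replicate 3 and CKO replicate 3, and the log2 fold change of 0.51 (SE 0.33) was not called. It was 0.86 without WT replicate 3, again not called. The antisense gene Gm11651 covers 5.58% of its exonic sequence, and Gm47118 covers 1.64% of that of Edn1.

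The remaining receptors were scarce. Agtr1a, the main receptor for angiotensin II in mice, had 11, 7 and 28 counts in WT and 3, 3 and 5 counts in CKO libraries. All 3 CKO libraries were below all 3 WT libraries, at counts too low for the filter. The nearest libraries of the groups were at 0.241 CPM (CKO) and 0.257 CPM (WT), and 15.7% of all genes tested had every CKO library below. Gm48161 lies within Agtr1a on the same strand and shares no exonic base with it. Bdkrb1, the kinin receptor that is induced by injury, had 6, 2 and 0 counts in WT and 9, 1 and 3 counts in CKO libraries, and Bdkrb2, the constitutive bradykinin receptor, had 0, 1 and 0 counts in WT and 2, 4 and 0 counts in CKO libraries. Neither kinin receptor gives a difference that could be read at this depth, and no fold is given for them.

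The levels can be compared between genes only per length. As CPM per kb of exonic sequence in WT libraries (mean ± SD, n = 3), Ednrb was at 99.8 ± 16.3, Kng1 at 35.2 ± 4.95, Kng2 at 25.2 ± 1.87, Agt at 8.18 ± 1.46, Ednra at 3.88 ± 1.10, Edn1 at 0.907 ± 0.0601 and Ace at 0.336 ± 0.123. From Ednrb to Ace the ranges of neighbours in this order did not overlap. Those of Ace and Agtr1a, of Agtr1a and Bdkrb1, and of Bdkrb1 and Bdkrb2 did. Ednrb stood above 97.5% of the 13730 tested genes with a length, Kng1 above 91.4% and Kng2 above 86.9%, whereas Ace stood above 7.84%. In WT libraries the kinin precursors were thus among the more abundant transcripts, while transcripts of both kinin receptors were near the limit of detection.

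In CKO libraries the order changed in the middle. Ednrb at 86.0 ± 9.99 CPM per kb was now 12.3 times the level of Kng1, which stood at 6.97 ± 0.311 and overlapped Kng2 at 6.58 ± 0.162. Edn1 (1.24 ± 0.085), Agt (1.21 ± 0.186) and Ednra (0.993 ± 0.0387) followed, and the ranges of Edn1 and Agt and of Agt and Ednra overlapped. With the longest transcript as length Ednra was at 1.50 CPM per kb, above Edn1 and Agt, so the order of these 3 is not fixed by the data.

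**Figure D3:**
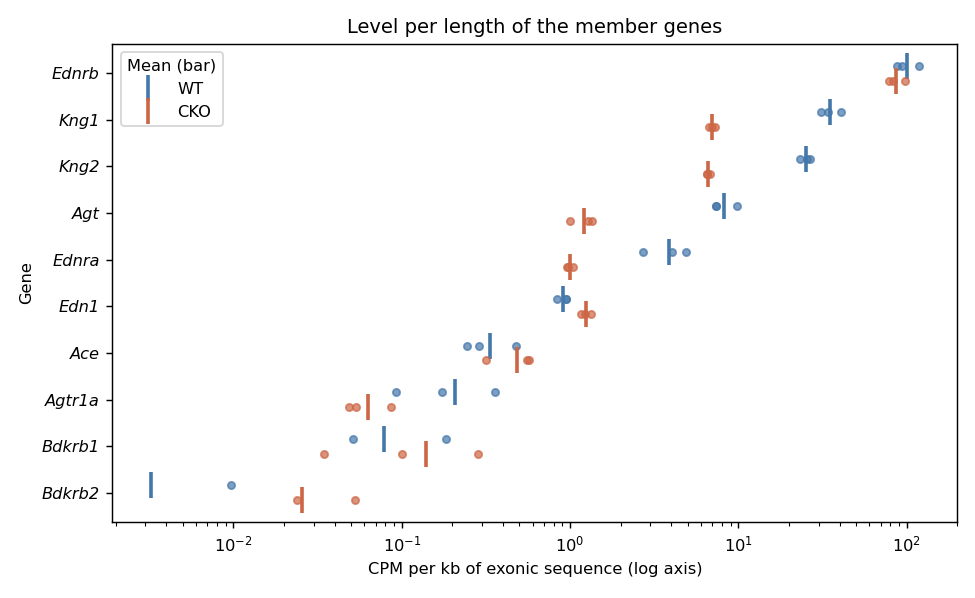
The level of each member is shown in CPM per kb of exonic sequence on a log axis, with points for single libraries (libraries at 0 cannot be drawn) and bars for the mean of 3 libraries. The genes are ordered by the WT mean, and Agt, Ednra and Edn1, which are apart in WT, come together near 1 CPM per kb in CKO.

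Kng1 and Kng2 lie 28.4 kb apart on chromosome 16 and point away from each other. Counting the kininogens themselves, 24 annotated genes lie within 100000 bases of either, 11 of these were in the count table, and 5 of the 9 that are not kininogens were tested. The pseudogene Gm6493, which lies inside Kng2 on the same strand and shares no exonic base with it, was at 9.50 ± 1.12 CPM in WT and 10.4 ± 0.719 CPM in CKO libraries (log2 fold change 0.14, adjusted p = 0.633 by edgeR's quasi-likelihood test). Fetub, which encodes a fetuin of the cystatin superfamily (-0.22, adjusted p = 0.842), Eif4a2, a translation initiation factor (0.05, adjusted p = 0.856), and Rfc4, a subunit of the clamp loader (0.01, adjusted p = 0.988), did not pass the test either.

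Adipoq, which encodes the adipocyte hormone adiponectin and starts 64.5 kb beyond the end of Kng1, fell from 47.0 ± 5.96 CPM in WT to 0.824 ± 0.608 CPM in CKO libraries (log2 fold change -5.80, SE 0.36, adjusted p = 0.000111 by edgeR). Between Kng1 and Adipoq lie Eif4a2, at 204 ± 34.9 CPM in WT and 211 ± 5.59 CPM in CKO libraries, and Rfc4, at 4.48 ± 1.89 and 4.51 ± 1.55 CPM. Ahsg, the fetuin-A gene, had a mean of 0.0869 CPM in WT and no count in CKO libraries and was not tested, and neither were Gm30505, C730014E05Rik and LOC115488691, with at most 6 counts in any library. The other annotated neighbours were not analysed here.

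**Figure D4:**
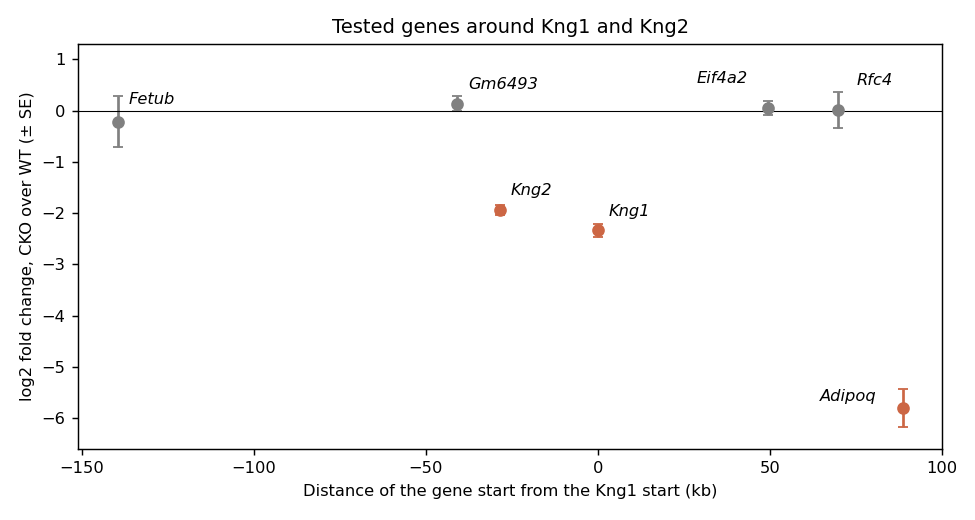
The log2 fold change of CKO over WT (± SE) of each tested gene around the kininogens is drawn against the distance of its start from the start of Kng1 in kb, with called genes in orange and the others in grey. Kng2, Kng1 and Adipoq lie below -1, and Fetub, Gm6493, Eif4a2 and Rfc4 lie near 0.

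Of the 7 adipocyte markers tested, 4 were called lower in CKO libraries, beside 2.5% of all genes tested, and 3 were not called. Those that fell were Adipoq, Plin1 (a coat protein of fat droplets), Cidec (a fat droplet protein) and Pparg (the master transcription factor of adipocytes). Plin1 had 69, 59 and 115 counts in WT and 0 in every CKO library. Cidec had 33, 32 and 52 counts in WT and 0, 1 and 0 in CKO libraries. Pparg was at 30.3 ± 5.00 CPM in WT and 10.2 ± 0.705 CPM in CKO libraries (adjusted p = 0.000557, edgeR). Cebpa, Lpl and Fabp4, which macrophages also express, did not pass, and the cell type that gave their reads was not tested. Fabp4 was at 66.3 to 78.8 CPM in WT and 85.3 to 107.3 CPM in CKO libraries, so that every CKO library lay above every WT library (log2 fold change 0.46, adjusted p = 0.0545, edgeR). The log2 fold change was 0.23 for Lpl and -0.19 for Cebpa. The summed level of the list was 762 to 801 CPM in WT and 662 to 863 CPM in CKO libraries. The part of adipocytes in the lower Kng1, Kng2, Agt and Ednra values was not tested.

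Of the other cell types, smooth muscle and pericyte markers summed to 568 to 725.5 CPM in WT and 597 to 624 CPM in CKO libraries, and 2 of 9 fell, Rgs5 and Mcam, while Acta2, the most abundant per kb, was at 530 ± 80.8 and 517 ± 11.5 CPM. Markers of endothelial cells, the usual source of endothelin-1, summed to 33.9 to 46.2 CPM in WT and 31.8 to 36.7 CPM in CKO libraries, with 0 of 9 called and 0 at an adjusted p under 0.05 at any fold (edgeR). Cdh5, the most abundant of them per kb, was at 13.0 ± 2.87 and 8.24 ± 0.165 CPM (adjusted p = 0.0618, edgeR). Neutrophil markers summed to at most 1.98 CPM in any library, and S100a8 was called higher, from 0.469 to 1.28 CPM. The 12 mesenchymal markers summed to 7817 to 10290 CPM in WT and 13110 to 13960 CPM in CKO libraries. Of these, Thy1 and Ly6a were called higher and Eng and Alpl, the alkaline phosphatase of osteoblasts, lower, with Ly6a named for this count only. At an adjusted p under 0.05 at any fold, 4 of the 12 were higher and 4 lower. Those short of the fold were Col1a1, from 4039 ± 511 to 6173 ± 299 CPM (adjusted p = 0.0154, edgeR), and Col1a2 (log2 fold change 0.64, adjusted p = 0.0322, edgeR), which rose, and Pdgfra and Vcam1, which fell (adjusted p = 0.0244 and 0.0216, edgeR). Their part in the members' values was not tested.

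Further genes were counted from 6 hand-written lists that hold no member: 3 lists of the kinin, angiotensin and endothelin systems themselves, and lists of Gq signalling, of other vasoactive peptides and of cystatins. Of 58 tested genes over all 6 lists, 8 were called lower (13.8%, beside 2.5% of all genes tested) and 1 higher (1.72%, beside 1.03%), and the median log2 fold change was -0.01, beside 0.00 over all genes tested. The lists were written with earlier results of these data known, so these counts are a description.

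In the kallikrein-kinin list 2 of 8 tested genes fell and 1 rose. Serping1, which encodes the C1 inhibitor that blocks plasma kallikrein, was at 416.6, 372.0 and 651.4 CPM in WT and 192.6, 162.7 and 166.5 CPM in CKO libraries (log2 fold change -1.46, SE 0.20, adjusted p = 0.00351, edgeR). Mme, the peptidase neprilysin that degrades bradykinin and other peptides, fell from 61.6 ± 16.1 to 29.0 ± 1.05 CPM (adjusted p = 0.00736, edgeR). That call was lost without WT replicate 3, where the log2 fold change was -0.86. Plaur, the urokinase receptor that also binds kininogen at the cell surface, rose from 11.8 ± 1.34 to 32.2 ± 3.45 CPM (log2 fold change 1.46, SE 0.14, adjusted p = 0.000504, edgeR). Plasma prekallikrein (Klkb1) was at 0.218 to 0.367 CPM in WT and 0.448 to 0.495 CPM in CKO libraries and did not pass. Tissue kallikrein 1 (Klk1) and factor XII (F12) were not analysed here.

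In the renin-angiotensin list 1 of 11 tested genes fell and 0 rose at the call rule or at an adjusted p under 0.05 alone (edgeR). Enpep, aminopeptidase A, which trims angiotensin II to angiotensin III, was at 12.5, 13.4 and 17.0 CPM in WT and 2.03, 1.49 and 1.54 CPM in CKO libraries (log2 fold change -3.08, SE 0.20, adjusted p = 0.000134, edgeR). Ctsd, the lysosomal protease cathepsin D and the most abundant of the list per kb, was at 3091 ± 1300 CPM in WT and 4203 ± 57.8 CPM in CKO libraries and did not pass (adjusted p = 0.431, edgeR). Of the receptors, Agtr2 had 16, 33 and 51 counts in WT and 10, 5 and 9 counts in CKO libraries, with an adjusted p of 0.0588 (edgeR). It was chosen for mention after its values were seen, and it was called lower with DESeq2, with no filter on low counts and without WT replicate 1. Agtr1b, chosen in the same way, had no more than 3 counts in any library. Renin (Ren1) was not analysed here.

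Of the endothelin list 2 genes were tested. Ece1, the enzyme that releases endothelin-1 from its precursor, was at 156 ± 15.0 CPM in WT and 171 ± 4.23 CPM in CKO libraries and did not pass (log2 fold change 0.14, adjusted p = 0.475, edgeR). Ece2 was at 0.287 to 0.625 CPM in WT and 0.577 to 0.647 CPM in CKO libraries and did not pass either.

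Of 22 genes of Gq signalling, through which these receptors act, 2 were called lower and 0 higher. Both encode regulators that shorten G protein signals. Rgs5, also a pericyte marker, fell from 13.1 ± 3.18 to 3.30 ± 0.0912 CPM (log2 fold change -1.99, SE 0.20, adjusted p = 0.000721, edgeR), and Rgs4 fell from 3.02 ± 0.492 to 1.35 ± 0.217 CPM (adjusted p = 0.021, edgeR). The call of Rgs4 was lost without WT replicate 2 and without any 1 of the 3 CKO libraries. Itpr2, an inositol trisphosphate receptor, was lower by less (log2 fold change -0.42, adjusted p = 0.0464, edgeR). Arrb2, an arrestin and the most abundant of the list per kb, did not pass (adjusted p = 0.464, edgeR).

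Of 11 tested genes of other vasoactive peptides 3 fell by the call rule, Npr3, Avpr1a and Ramp2. Npr3, the clearance receptor for natriuretic peptides, fell from 94.6 ± 7.06 to 29.2 ± 3.29 CPM (log2 fold change -1.69, SE 0.12, adjusted p = 0.000154, edgeR). Avpr1a, a vasopressin receptor that signals through Gq, fell from 2.08 ± 0.211 to 0.495 ± 0.132 CPM (adjusted p = 0.0041, edgeR). Ramp2, a partner of the adrenomedullin receptor, had 23, 19 and 16 counts in WT and 2, 3 and 2 in CKO libraries (adjusted p = 0.0123, edgeR), and its call was lost without CKO replicate 1 or 3. Vipr2, a receptor of vasoactive intestinal peptide, was lower without reaching the fold (log2 fold change -0.94, adjusted p = 0.00468, edgeR). Adm, which encodes adrenomedullin, was at 24.7 ± 2.46 and 27.1 ± 4.36 CPM and did not pass.

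Among cystatins, the family to which the inhibitory domains of kininogens belong, 0 of 4 tested genes were called, and 1 had an adjusted p under 0.05. Cst6 rose from 1.88 ± 0.422 to 3.75 ± 0.239 CPM (log2 fold change 1.00, SE 0.22, adjusted p = 0.0322, edgeR) and lay just short of the fold of the call rule. Its adjusted p was above 0.05 with the replicate number as a block (0.0568) and without WT replicate 2 (0.0797) or CKO replicate 1 (0.146), 2 (0.0976) or 3 (0.117), again by edgeR. Cst3, the most abundant of the list per kb, was at 769 ± 223 CPM in WT and 812 ± 35.1 CPM in CKO libraries and did not pass (adjusted p = 0.858, edgeR).

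**Figure D5:**
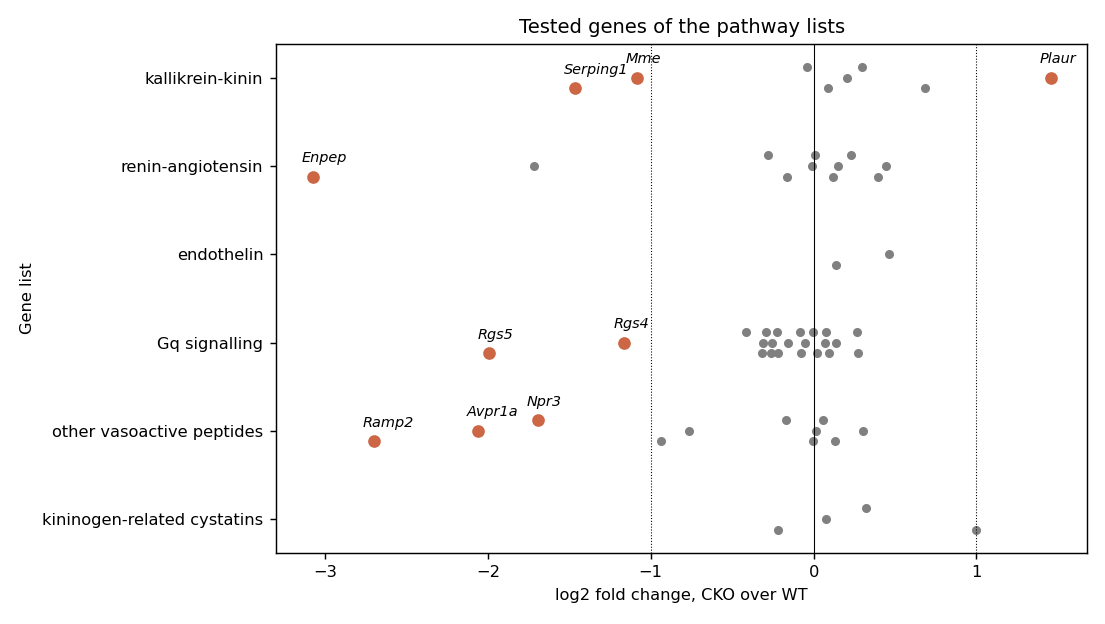
Each point is a tested gene of one of the 6 lists, placed by its log2 fold change of CKO over WT, with called genes in orange and named and dotted lines at the size of 1. The 8 genes called lower spread over 4 lists, Plaur alone is called higher, and Cst6 lies at the dotted line without a call.

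For each of the 4 called members the most similar patterns over the 6 libraries were sought among 12634 other genes, by Pearson's r of log2 CPM (n = 6). This is a description of 6 libraries that differ in genotype and depth, and any gene that is low in all CKO libraries can score high. Kng1 was most like Pdzrn4 (r = 0.999), Susd2 (r = 0.998) and Afap1 (r = 0.998). Kng2 was most like Limch1, Gja1, which encodes the gap junction protein connexin 43, and Mrgpre. Ednra was most like Prss35, Arhgap32 and Ssbp3, and Agt was most like Tln2, Gatb and Ackr4. Among these 12 genes the log2 fold changes ran from -3.42 for Susd2 to -0.38 for Ssbp3, so a similar pattern did not mean a similar size of difference. No member was among the 3 genes nearest to another.

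The start of each transcript is shown because the enzyme encoded by Pcif1 acts on a cap-adjacent adenosine. The sequences run from 60 bases before the start to 10 bases from it in RefSeq on GRCm38.p6, 5′ to 3′ on the strand of the gene, with the annotated first base in capitals. They were given for 5 members of the tested 7 with 1 start each.
Kng2: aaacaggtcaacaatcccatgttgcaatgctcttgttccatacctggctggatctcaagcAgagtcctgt
Agt: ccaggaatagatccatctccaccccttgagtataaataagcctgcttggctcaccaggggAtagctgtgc
Ednra: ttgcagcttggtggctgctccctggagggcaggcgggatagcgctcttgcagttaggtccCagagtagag
Ednrb: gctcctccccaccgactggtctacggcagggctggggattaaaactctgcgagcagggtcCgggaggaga
Edn1: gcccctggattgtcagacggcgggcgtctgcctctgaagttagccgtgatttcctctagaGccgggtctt
These windows are chr16:23029092-23029161 (minus) for Kng2, chr8:124569697-124569766 (minus) for Agt, chr8:77724443-77724512 (minus) for Ednra, chr14:103843692-103843761 (minus) for Ednrb and chr13:42301416-42301485 (plus) for Edn1. The first base in RefSeq was A for Kng2 and Agt, both called lower, C for Ednra, which was also called lower, and for Ednrb, and G for Edn1. Ace, which was not called, had A at 1 of its 2 RefSeq starts and G at the other. Over all 32851 RefSeq promoter windows 34.36% had an A there. In GENCODE, 1 of 3 coding transcripts of Kng1, 1 of 3 of Kng2 and 1 of 2 of Ace began with A. Of 13033 tested protein-coding genes, 26.3% had an A as first base of the representative transcript. That base was A for Kng2 and Agt, T for Kng1, G for Ednra, Edn1 and Ace, and C for Ednrb. The annotations thus differ for Ednra, and Ace has starts with A and with G in both. Annotated starts were not measured in these cells. In the 300-base promoter windows the letters TATAAA, searched on both strands, occurred for Agt and for 1 of 2 starts of Ace, against 13.62% of all windows, and TGTTCT, one arm of the site that the glucocorticoid receptor binds, for Kng2 and Ednrb, against 18.97% of all windows. The AP-1 letters TGANTCA occurred for none of the members with a window (7.808% of all windows), and the E-box letters CANNTG for Ednra, Agt and the other start of Ace (72.31% of all windows). A match of letters is a description of the sequence, and none of these matches overlap.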

How the data were processed

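MSCs of both genotypes were induced for 7 days, with 3 libraries each. The authors mapped paired reads to mm10 with HISAT2 and deposited raw counts per gene, which they did not normalize. The counting tool, its annotation, its use of strand and its treatment of reads with more than 1 place are not given in the sources used here. The design text speaks of duplicates, whereas the labels give 3 libraries per genotype. Nothing says that the libraries are separate animals, so p-values set the difference of the groups against the spread between libraries, which may be technical.

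Of 20163 rows, 92 repeated an Ensembl ID with the same counts, which left 20071. Counts were fitted over the whole table with edgeR 4.0.16 in R 4.3.3 (filterByExpr, TMM, glmQLFit, glmQLFTest, no covariate). Genes were called where the log2 fold change reached 1 in size and the p adjusted by Benjamini-Hochberg over 13733 genes was under 0.05. The SE was obtained by dividing the log2 fold change by the root of its F statistic. CPM per kb divides by the union of exonic bases in GENCODE M21. Groups with at most 3 counts in every library were taken to be at the floor. Kininogen transcripts were aligned with blastn 2.17.0. SD and SE hold library and counting error only, and 3 libraries against 3 cannot give an exact permutation p under 0.1. The fits were tested on simulated data.

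The members and the lists were chosen with earlier results of these data known. Text names all 10 members; of each list, genes with an adjusted p under 0.05 (at most 6) and the most abundant per kb; 3 most similar genes per called member (mean of at least 1 CPM, 0.5 added before log2); and genes overlapping a member, and genes of the count table within 100000 bases of a kininogen. Klkb1, Ece2, Prrx1, Fabp4, Lpl, Ly6a, Col1a2, Agtr2 and Agtr1b were named outside this rule, after their values were seen. DESeq2 1.42.0, limma-voom (limma 3.58.1), other scalings and filters, the replicate block, and leaving out each library were the alternatives.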

Additional observations from a re-analysis of the deposited data

How the results depend on the processing

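Kng1, Kng2, Ednra and Agt were called lower, and 0 members higher, in all 13 alternative fits and at an adjusted p under 0.05 at any fold. Since these genes were selected on the same counts, the repeated calls show only that the values do not hang on these settings and are no independent support. The log2 fold changes ranged from -2.42 to -2.22 for Kng1, -1.99 to -1.89 for Kng2, -2.17 to -1.75 for Ednra and -2.83 to -2.59 for Agt. Edn1 (0.40 to 0.50), Ace (0.33 to 0.86) and Ednrb (-0.31 to -0.07) kept their sign and were called in none. Agtr1a entered 6 fits and was called in none (-2.08 to -1.55). Leaving out 1 library gave 6 to 9 listed genes called lower and 1 or 2 higher, and 253 to 385 genes lower and 89 to 229 higher over all genes, with 229 higher without WT replicate 3 and 91, 90 and 89 without CKO replicates 1, 2 and 3. Listed genes called higher numbered 2 with RLE size factors, DESeq2, limma-voom, a mean of at least 10 counts and an adjusted p under 0.05 at any fold, the second being Cst6, which was also called without WT replicate 1, but whose adjusted p (edgeR) was 0.0568 with the block and 0.0797 to 0.146 without WT replicate 2 or any 1 CKO library. At any fold 620 genes were lower and 396 higher, against 343 and 142. With the replicate number as a block, 4 members, 8 and 1 listed genes, and 326 and 126 of all genes were called lower and higher. Deviations of same-numbered libraries from their group means correlated at 0.064, -0.050 and -0.0016, so the numbers were not taken to pair the libraries, and not every library correlated best with its own number. Depth limits Agtr1a, Bdkrb1 and Bdkrb2, with at most 28 counts.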
